A study of Mus musculus with 6 samples.

Results

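The 45 genes described here encode factors that make ribosomes: RNA polymerase I and its helpers, the small nucleolar ribonucleoproteins (snoRNPs) that modify ribosomal RNA (rRNA), and the proteins that assemble the small and large subunits. They were chosen by name, as rows of the deposited table whose symbol is a listed rRNA transcription, processing or assembly factor. The list was drawn up with earlier results of these data known, so its counts and shares below are descriptions only. All 45 were in the table of 13007 genes, and all 45 passed the filter on low values that left 12427 genes for testing. Their poly-A RNA was measured by RNA sequencing in 3 libraries of murine acute erythroid leukemia (AEL) and 3 libraries of normal erythroid precursors (NC), both from bone marrow of C57BL/6 mice and each from the same number of sorted cells. The AEL cells had the genotype Trp53-/- with ERG expression, carried transduced ERG, a transcription factor of the ETS family, coexpressed with GFP, and were sorted as GFP-positive. The NC cells were wild type and were stained with antibodies to CD71 (transferrin receptor) and Ter119 (an erythroid surface antigen) and sorted. Mutated SETBP1 and ASXL1 are named in the source label of every library, which for NC contradicts the wild-type genotype and is not settled by the labels. Because AEL was sorted by GFP and NC by surface staining, genotype and sort cannot be told apart. The samples are labelled as biological replicates, with no animal named, and the p-values reflect only how far these libraries scatter.

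A ribosome begins in the nucleolus, where RNA polymerase I copies the repeated rRNA genes into one long precursor. snoRNPs, RNA-protein particles guided by a small nucleolar RNA, methylate this precursor or convert its uridines to pseudouridine, while the small subunit processome and the large subunit assembly factors fold and cut it and add ribosomal proteins. The pathway is driven by growth signals and by MYC, is most active in early, dividing erythroid cells, and is shut down as red cells mature.

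Promoters of the factors were read because the genes moved together and because ERG binds ETS sites. RefSeq promoter windows of GRCm38.p6, from 250 bases before to 50 bases after a start, were found for 38 of the 45 genes, in 48 windows. Entries were missing for Tcof1, Fbl, Nol6, Rrp12, Bop1, Rrs1 and Npm1. The E-box CACGTG, which MYC and related factors bind, reads the same on both strands, and it was present in 9 of the 38 genes (23.7%), against 11.8% of 10106 genes of the table with a window. The ETS-type motif CCGGAAGT, searched on both strands, was present in 10 of the 38 (26.3%), against 9.17%. Over all genes of the promoter reference the shares were 8.09% for CACGTG and 4.31% for CCGGAAGT. The compared genes were not matched to the factors for level or base composition, and a link to MYC or ERG was not tested. The 2 motifs overlapped in 0 of the 48 windows of the factors, and a match is a description of the sequence, not a binding site. The 250 bases before the start of 4 genes are shown, 5′ to 3′ on the strand of the gene, with the matched motifs in capitals. Rrn3 (chr16:13780449-13780698, plus strand) carries E-boxes at positions -215 and -48, counted back from the start; an ETS-type match at -6 runs past the start and is left in lower case. Nop2 (chr6:125131633-125131882, plus strand) has an E-box at -60. Heatr1 (chr13:12395125-12395374, plus strand), the gene with the largest rise, has an ETS-type match at -16. Nhp2 (chr11:51619523-51619772, plus strand), which did not pass the test, has one at -23.
Rrn3: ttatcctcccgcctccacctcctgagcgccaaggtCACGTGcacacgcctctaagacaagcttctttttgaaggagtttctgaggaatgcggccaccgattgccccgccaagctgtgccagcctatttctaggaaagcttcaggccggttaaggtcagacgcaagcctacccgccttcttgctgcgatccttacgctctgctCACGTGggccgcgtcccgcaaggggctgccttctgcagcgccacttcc
Nop2: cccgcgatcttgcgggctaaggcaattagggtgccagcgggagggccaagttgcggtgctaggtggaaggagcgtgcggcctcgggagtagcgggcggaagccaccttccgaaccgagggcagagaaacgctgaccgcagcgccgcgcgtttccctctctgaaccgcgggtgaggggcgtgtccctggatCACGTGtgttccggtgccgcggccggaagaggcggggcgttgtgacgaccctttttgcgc
Heatr1: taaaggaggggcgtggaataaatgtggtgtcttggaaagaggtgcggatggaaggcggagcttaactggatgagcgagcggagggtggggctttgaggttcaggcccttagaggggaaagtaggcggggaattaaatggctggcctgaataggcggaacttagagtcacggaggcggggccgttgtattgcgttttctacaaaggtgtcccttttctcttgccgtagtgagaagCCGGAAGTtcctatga
Nhp2: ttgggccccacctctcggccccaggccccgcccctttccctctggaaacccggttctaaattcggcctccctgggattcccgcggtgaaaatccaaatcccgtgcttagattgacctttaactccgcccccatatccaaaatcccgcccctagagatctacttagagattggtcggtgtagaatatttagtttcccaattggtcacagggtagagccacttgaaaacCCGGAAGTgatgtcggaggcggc

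The libraries held 8171676 to 9945330 counts, and levels are given as CPM, counts scaled to a common library total and by TMM factors, which correct for differences in RNA composition. CPM is a share of the library, so fewer cells of a type and less RNA per cell cannot be told apart. In the libraries labelled Trp53-/- Trp53 was at 976 to 1171 CPM, against 162 to 177 CPM in NC, so gene-level counts do not check that label. Erg was at 556 to 789.6 CPM in AEL and 4.38 to 8.52 CPM in NC. The AEL libraries differed more among themselves, with a biological coefficient of variation of 44.2% against 9.15% in NC.

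Of the 45 factors 42 rose in AEL and 0 fell, with adjusted p under 0.05 in edgeR's quasi-likelihood test across all genes. Among all tested genes 23.9% rose and 29.0% fell, 52.8% in either direction; with library totals alone these shares were 30.6% and 24.8%, and 43 factors rose. The median change of the 45 was 2.19-fold, a log2 fold change of 1.13, against a median of -0.05 over all tested genes. At least 2-fold rises numbered 28 of 45, where 13.0% of all genes rose that much, and at least 4-fold rises numbered 5, where 4.41% did. In 43 of the 45 genes every AEL library lay above every NC library, as it did for 29.9% of all genes. Ubtf, Fbl and Nhp2 did not pass.

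**Figure D1:**
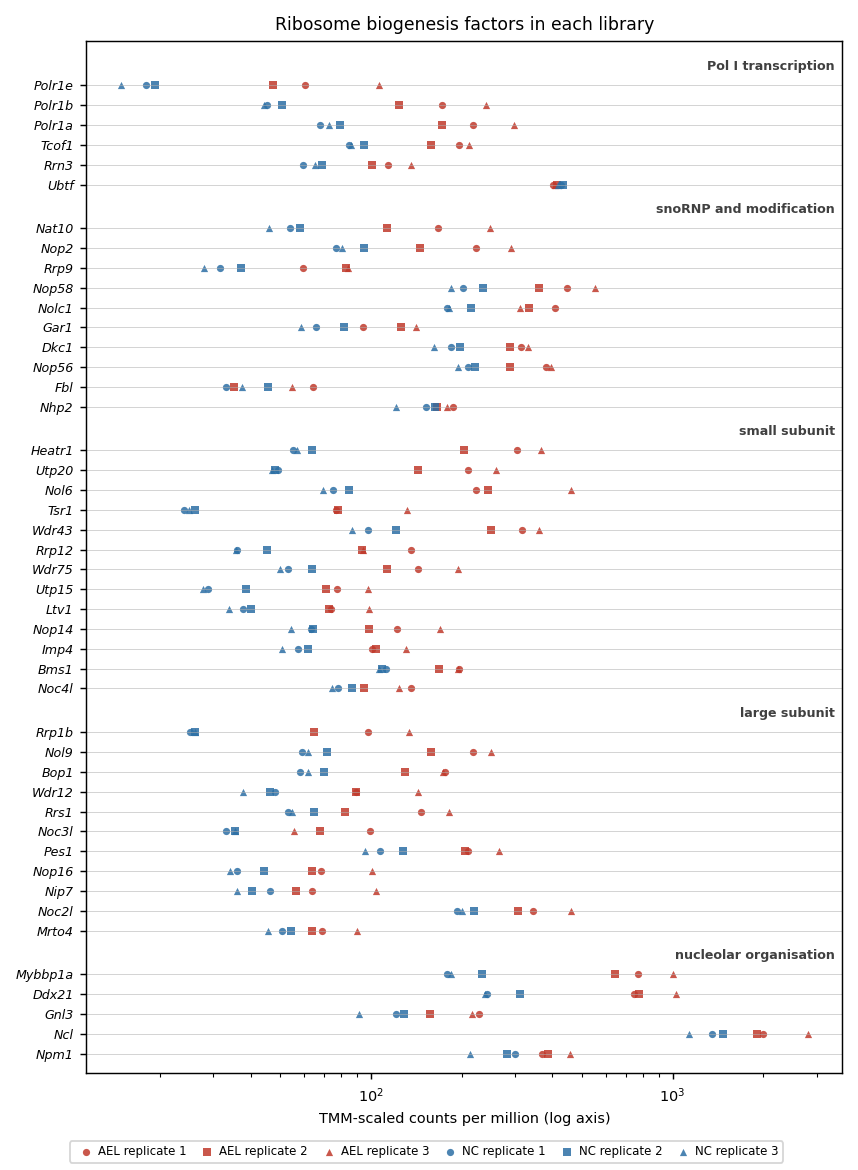
TMM-scaled CPM (log axis) of each of the 45 factors in the 3 AEL (red) and 3 NC (blue) libraries, one symbol per replicate, grouped by step. The red symbols lie to the right of the blue ones for 43 genes, while those of Ubtf and Fbl do not.

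**Figure D2:**
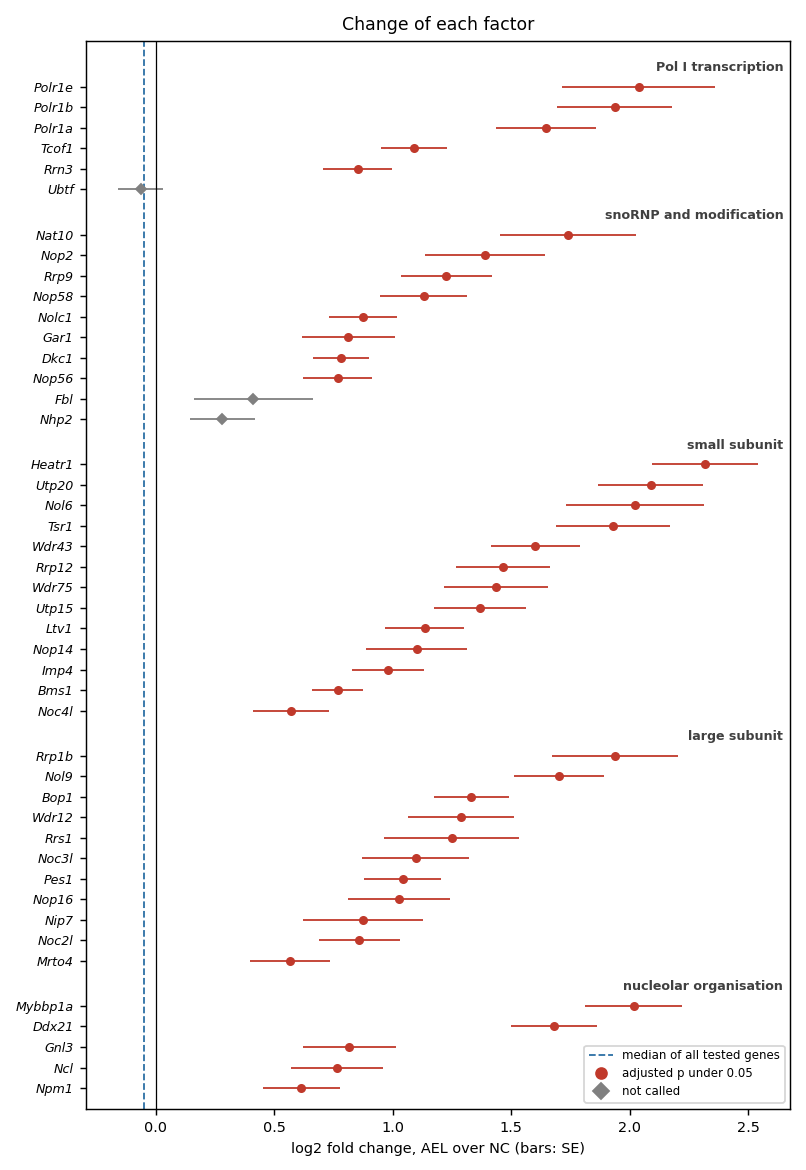
log2 fold change of AEL over NC for each factor, with bars of 1 SE; red circles passed the edgeR test and grey diamonds did not, and the dashed line is the median of all tested genes. The values run from -0.07 for Ubtf to 2.32 for Heatr1.

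Among the 6 factors of rRNA transcription 5 rose, and the 3 polymerase subunits among them rose most. Polr1a, the largest subunit, which carries much of the active site (chromosome 6, 71909053 to 71979435, GRCm38), was at 218, 172 and 298 CPM in AEL replicates 1 to 3 and at 67.8, 79.1 and 72.7 CPM in NC replicates 1 to 3. Polr1b, the second largest subunit (chromosome 2, 129100970 to 129128060), was at 172, 124 and 240.2 CPM in the AEL libraries, and the NC values were 45.4, 50.7 and 44.2 CPM. Polr1e, a subunit particular to this polymerase, was at 60.4, 47.4 and 107 CPM in the AEL libraries, and the NC values were 18.1, 19.4 and 14.9 CPM. All 3 subunits were highest in AEL replicate 3 and lowest in AEL replicate 2 within that group, and the groups did not overlap. The rises were 3.13-fold for Polr1a (log2 fold change 1.65, SE 0.21, edgeR adjusted p = 0.00122), 3.83-fold for Polr1b (1.94, SE 0.24, adjusted p = 0.00116) and 4.11-fold for Polr1e (2.04, SE 0.32, adjusted p = 0.00252). Other subunit genes, from the list of other biogenesis genes described below, moved unevenly. Polr1c, Polr1d and Znrd1 did not pass, at -0.32, -0.07 and -0.18 on the log2 scale, while Twistnb and Cd3eap were at 0.87 and 1.29.

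The other factors of rRNA transcription among the 45 changed less. Of the promoter factors in the list of other biogenesis genes below, Taf1a, Taf1b, Taf1c and Taf1d were at 1.11, 0.33, 0.12 and 1.38 on the log2 scale. Rrn3, which links the polymerase to the promoter-bound factors and has both E-boxes shown above, was at 114, 101 and 136 CPM in the AEL libraries, and the NC values were 59.8, 69.1 and 65.4 CPM, a rise of 0.85 on the log2 scale (SE 0.15, adjusted p = 0.00339). Tcof1, or treacle, a nucleolar protein that supports rRNA gene transcription, was at 196, 159 and 211 CPM in the AEL libraries, and the NC values were 84.8, 95.2 and 86.4 CPM, and rose 2.13-fold. Ubtf, the HMG-box protein that coats active rRNA genes (chromosome 11, 102304560 to 102323649), was at 401, 416 and 408 CPM in the AEL libraries, and the NC values were 427, 435 and 418 CPM. Its log2 fold change was -0.07 (SE 0.09, edgeR adjusted p = 0.585). All AEL values of Ubtf lay below all NC values on this scale, but with library totals alone they lay above, at 417 to 448 CPM against 387 to 407 CPM. Ubtf was also the steadiest of the 45 within each group, with a coefficient of variation of 1.85% in AEL and 1.95% in NC.

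Of 10 snoRNP and modification genes 8 rose, with a median of 0.84 on the log2 scale. Box C/D particles methylate the sugar of rRNA. Their scaffold proteins Nop56 and Nop58 were at 381, 289.7 and 396 CPM and at 448, 362 and 554 CPM in AEL, with 195 to 222 CPM and 185 to 236 CPM in NC. Nop58 rose 2.19-fold (1.13, SE 0.18, adjusted p = 0.00275) and Nop56 rose 1.70-fold (0.77, SE 0.15, adjusted p = 0.0051). Fbl, or fibrillarin, the methyltransferase of the same particle, did not pass: it was at 64.6, 35.3 and 55.1 CPM in the AEL libraries, and the NC values were 33.1, 45.8 and 37.5 CPM. AEL replicate 2 lay within the NC range of Fbl. Its log2 fold change was 0.41 (SE 0.25, adjusted p = 0.207), and without AEL replicate 2 it was 0.66 and passed (adjusted p = 0.0159). Rrp9, a protein of the snoRNP that opens small subunit assembly, rose 2.34-fold, from 28.0 to 37.3 CPM in NC to 59.9 to 83.9 CPM in AEL.

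Box H/ACA particles make pseudouridine. Dkc1, or dyskerin, their enzyme, was at 315, 289 and 331 CPM in the AEL libraries, and the NC values were 184, 198 and 162 CPM, a rise of 0.78 (SE 0.12, adjusted p = 0.00221). Gar1, a core protein of the same particle, rose by 0.81 (SE 0.20, adjusted p = 0.013), a call that ended without NC replicate 1 (adjusted p = 0.0542) or 3 (adjusted p = 0.0545). Nhp2, a further core protein, was at 187, 166 and 179 CPM in the AEL libraries, and the NC values were 153, 163 and 122 CPM. The groups of Nhp2 did not overlap, but the log2 fold change of 0.28 (SE 0.14, adjusted p = 0.128) did not pass; with library totals alone it was 0.47 and passed (adjusted p = 0.0288). Among the other modification factors, Nat10, the rRNA cytidine acetyltransferase, rose 3.34-fold from 46.2 to 58.5 CPM in NC to 113 to 249 CPM in AEL. Nop2, an rRNA cytosine methyltransferase whose promoter is shown above, rose 2.62-fold, with AEL values of 224, 145 and 291 CPM against 77.0 to 95.2 CPM in NC. Nolc1, a chaperone of snoRNPs, rose 1.83-fold, and was highest in AEL replicate 1 at 408 CPM.

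All 13 small subunit factors rose, with a median of 1.43 on the log2 scale, and this step held 3 of the 5 factors that rose at least 4-fold. Heatr1, a large scaffold of the processome that also acts in rRNA transcription (chromosome 13, 12395375 to 12438893), was at 307, 204 and 367 CPM in the AEL libraries, and the NC values were 55.2, 63.8 and 57.2 CPM. It rose 4.98-fold (2.32, SE 0.23, edgeR adjusted p = 0.000489), the largest rise of the 45 and the 432nd of 12427 genes. Utp20, a scaffold of the same particle, was at 210.2, 143 and 259.7 CPM in the AEL libraries, and the NC values were 49.3, 48.1 and 47.0 CPM, a 4.25-fold rise. Nol6, a further processome protein, was at 224, 246 and 459.5 CPM in the AEL libraries, and the NC values were 74.8, 84.6 and 69.5 CPM, a 4.06-fold rise. In Nol6 AEL replicate 3 lay well above AEL replicates 1 and 2. The partners of Heatr1 in the subcomplex that binds the precursor first rose too: Wdr43 by 1.60 (SE 0.19), Wdr75 by 1.43 (SE 0.22) and Utp15 by 1.37 (SE 0.19).

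The other small subunit factors rose by 0.57 to 1.93 on the log2 scale. Tsr1, a GTPase-like protein of the maturing subunit, was at 76.6, 77.9 and 132 CPM in the AEL libraries, and the NC values were 24.1, 26.1 and 25.1 CPM, a 3.80-fold rise. Tsr1 shares 1159 exon bases with Srr on the opposite strand, and without a stated strand setting reads of both genes cannot be told apart; Srr itself was at 12.3 to 15.8 CPM in AEL and 9.10 to 10.6 CPM in NC. Rrp12, which serves the export of subunits, rose 2.76-fold, Ltv1, a late assembly factor, rose 2.20-fold, and Nop14 and Imp4, early processome proteins, rose 2.14-fold and 1.97-fold. The smallest rises of this step were those of Bms1, a GTPase of the processome, at 0.77 (SE 0.11, adjusted p = 0.00169), and Noc4l, the partner of Nop14, at 0.57 (SE 0.16, adjusted p = 0.0227). Bms1 was at 196, 168 and 194 CPM in the AEL libraries, and the NC values were 112, 109 and 107 CPM. Noc4l lost its call without any single NC library, with adjusted p of 0.0515 to 0.0846.

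All 11 large subunit factors rose as well, with a median of 1.10. Bop1, Pes1 and Wdr12 form one complex that is needed to cut the precursor of the large subunit rRNA. Bop1 (chromosome 15, 76452988 to 76477249) was at 177, 130.1 and 173 CPM in the AEL libraries, and the NC values were 58.5, 70.0 and 62.1 CPM, a rise of 1.33 (SE 0.16, adjusted p = 0.000929). Pes1 was at 211, 205 and 265 CPM in the AEL libraries, and the NC values were 107, 128 and 95.9 CPM, a rise of 1.04 (SE 0.16). Wdr12 was at 89.1, 89.7 and 144 CPM in the AEL libraries, and the NC values were 48.1, 46.3 and 37.9 CPM, a rise of 1.29 (SE 0.23). The 3 partners thus rose 2.06-fold to 2.52-fold.

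Rrp1b, a nucleolar chromatin and assembly protein, and Nol9, a polynucleotide kinase that acts on the precursor, rose most in this step. Rrp1b was at 97.7, 64.8 and 134 CPM in the AEL libraries, and the NC values were 25.1, 26.1 and 26.3 CPM, a 3.83-fold rise, and Nol9 rose 3.25-fold from 59.3 to 71.7 CPM in NC to 159 to 251 CPM in AEL. Rrs1, an early assembly factor, rose 2.38-fold and Nop16, a nucleolar protein of the forming large subunit, rose 2.03-fold. The Noc proteins, which travel with the precursor out of the nucleolus, differed in the library that led: Noc3l was highest in AEL replicate 1 (99.6, 67.9 and 55.6 CPM, against 33.3 to 35.6 CPM in NC) and Noc2l in AEL replicate 3 (344, 308 and 462 CPM, against 193 to 220.4 CPM). Noc2l shares 598 exon bases with Samd11 on the opposite strand, which fell by 3.04 on the log2 scale. Mrto4 had the smallest rise of this step. Mrto4, which holds the place of a stalk protein, rose by 0.57 (SE 0.17, adjusted p = 0.0274), and Nip7, a small protein of early assembly, rose by 0.87 (SE 0.25, adjusted p = 0.0249), or 0.58 without AEL replicate 3. Both calls ended without any single NC library, with adjusted p up to 0.0997 for Mrto4 and 0.0919 for Nip7.

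Among the 5 organising and regulatory proteins of the nucleolus all rose. Ncl, or nucleolin, an RNA-binding protein of the nucleolus (chromosome 1, 86344719 to 86359455), was at 1992, 1909 and 2811 CPM in the AEL libraries, and the NC values were 1348, 1473 and 1132 CPM. Npm1, or nucleophosmin, which builds the outer layer of the nucleolus (chromosome 11, 33152498 to 33164142), was at 371, 388 and 458 CPM in the AEL libraries, and the NC values were 299.9, 282 and 213 CPM. These well-known nucleolar proteins were among the smaller rises, 1.70-fold for Ncl (0.76, SE 0.19, adjusted p = 0.0154) and 1.53-fold for Npm1 (0.61, SE 0.16, adjusted p = 0.0182). The call of Ncl ended without NC replicate 1 (adjusted p = 0.0554) or 3 (adjusted p = 0.0629), and that of Npm1 without NC replicate 2 (adjusted p = 0.0515) or 3 (adjusted p = 0.052). Ddx21, an RNA helicase that works in rRNA transcription and processing, was at 745, 773 and 1029 CPM in the AEL libraries, and the NC values were 244, 313 and 239 CPM, a rise of 1.68 (SE 0.18, adjusted p = 0.00071). Mybbp1a, a nucleolar repressor and processing factor, was at 771, 643 and 1007 CPM in AEL against 179 to 234 CPM in NC. Gnl3, or nucleostemin, a nucleolar GTPase of proliferating cells, rose 1.76-fold, with 228, 157 and 217 CPM in AEL against 91.4 to 129 CPM in NC.

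The factors kept a common order across libraries. AEL replicate 3 had the highest AEL value for 35 of the 45 genes and AEL replicate 2 the lowest for 34, while over all tested genes these libraries held the highest or the lowest place in 30.9% and 33.0%. In NC, replicate 2 was highest for 39 of the 45, against 31.2% of all genes. The median log2 deviation of the 45 from the NC mean was 1.09, 0.88 and 1.39 in AEL replicates 1, 2 and 3 and -0.04, 0.14 and -0.13 in NC replicates 1, 2 and 3. By step, the AEL medians ran from 0.56 for nucleolar organisation in replicate 2 to 1.63 for rRNA transcription in replicate 3. In every step each AEL library lay above each NC library.

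**Figure D3:**
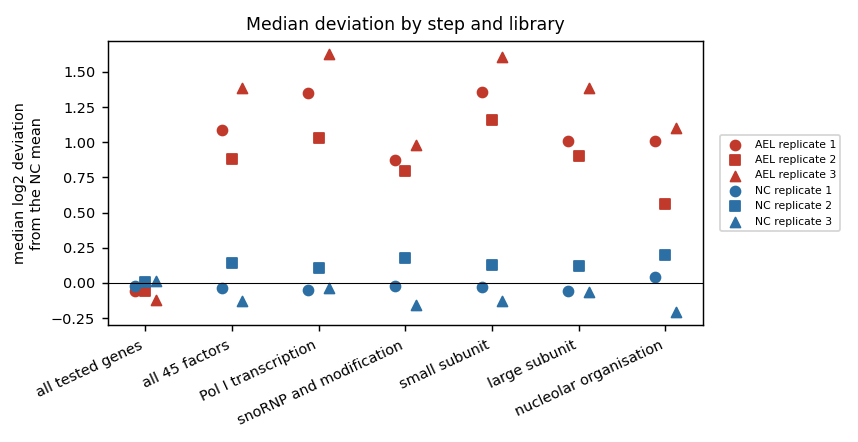
Median log2 deviation from the NC mean over all tested genes, over the 45 factors and over each step, one symbol per library (red AEL, blue NC). All tested genes lie near 0 in every library, and the 45 factors lie between 0.88 and 1.39 in the AEL libraries.

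Partners of one particle were compared within libraries, as the log2 ratio of their CPM, for 8 pairs. Between 3 and 3 libraries the exact two-sided permutation test cannot go below p = 0.1, so no pair could pass. For 4 pairs the groups did not overlap (exact permutation p = 0.1, adjusted over the 8 pairs 0.2). The share over all gene pairs was not computed. Among single genes, AEL lay wholly above NC in 29.9% and wholly below in 36.1%. The count of 4 is therefore given as a description only. The ratio of Nhp2 to Dkc1 was -0.75, -0.80 and -0.89 in AEL and -0.27, -0.28 and -0.42 in NC. That of Nop56 to Nop58 was -0.23, -0.32 and -0.49 in AEL and 0.05, -0.09 and 0.08 in NC. The Fbl to Nop58 and Polr1a to Polr1b ratios differed by a mean of -0.74 and -0.27, AEL minus NC. The ratios of Gar1 to Dkc1, Polr1e to Polr1b, Bop1 to Pes1 and Wdr12 to Pes1 overlapped between the groups. Fbl, Nop56, Pes1 and Wdr12 have near-identical transcripts of other genes, so ratios that use their counts are less certain.

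Some of the factors are host genes of small nucleolar RNAs. By GENCODE M21, 7 of the 45 (15.6%) hold snoRNA or scaRNA genes on the same strand within their bounds, 21 in all, against 1.86% of 11743 genes of the table with a match. They are Nop56 with 5, Nop58 with 4, Ncl, Wdr43 and Gnl3 with 3 each, Tsr1 with 2 and Dkc1 with 1. All 7 rose, by 0.76 to 1.93 on the log2 scale, where 42 of the 45 factors rose in all. The snoRNAs themselves were not analysed here. The genes lie on 19 chromosomes. An earlier analysis of these data named chromosomes 3, 9, 14 and 19 as shifted, and their medians here were 0.25, -0.38, -0.53 and -0.36. Gar1, Rrp9, Gnl3, Nolc1, Rrp12 and Noc3l, the 6 factors on them, all rose, which again is little more than the 42 of 45. By promoter motif, the 9 genes with CACGTG had a median log2 fold change of 1.39 and the 29 without it 1.10; the 10 genes with CCGGAAGT had 0.87 and the 28 without it 1.18. The ranges overlap widely, from 0.85 to 2.09 with CACGTG and from 0.28 to 2.32 with CCGGAAGT.

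Beyond the 45, a list of 128 other ribosome biogenesis genes, taken by function, was described in the same way. Of these 75 rose (58.6%), 3 fell and 50 did not pass, with a median log2 fold change of 0.66. Over all tested genes 23.9% rose and 29.0% fell. The large subunit list had 34 of 46 higher (73.9%) and the small subunit list 25 of 36 (69.4%). Shares were lower for snoRNP and modification genes, 7 of 19 (36.8%), and rRNA transcription, 4 of 10 (40%). Nucleases and the exosome, with 5 of 17 (29.4%), lay near the share of all tested genes. Mdn1, a giant ATPase that strips factors from the forming large subunit, was at 258, 379 and 405 CPM in the AEL libraries, and the NC values were 24.4, 32.2 and 30.7 CPM, an 11.9-fold rise (3.57, SE 0.22, adjusted p = 0.000128). The largest rises of the other steps were those of Cirh1a (Utp4), a processome protein, at 1.84 (SE 0.21), Znhit6, a snoRNP assembly factor, at 2.08 (SE 0.19), Xrn2, a nuclear exonuclease, at 1.14 (SE 0.10), and Taf1d, a subunit of the promoter selectivity factor, at 1.38 (SE 0.38). Taf1d stood at 283, 116 and 109 CPM in AEL replicates 1, 2 and 3; its change was 0.86 without replicate 1, and leaving out any single NC library ended the call (adjusted p = 0.0601 to 0.0768). The 3 that fell were Gltscr2 (Nop53), a late large subunit factor, at -0.58 (SE 0.10), Nol7 at -0.61 (SE 0.13) and Pih1d1, a snoRNP assembly chaperone, at -0.48 (SE 0.16, adjusted p = 0.0402), a call lost with library totals alone, with the replicate block and without 5 of the 6 single libraries.

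Of the 77 cytosolic ribosomal protein genes 2 rose (2.6%, where 23.9% of all tested genes rose). In the same list 22 fell (28.6%, where 29.0% of all tested genes fell), and the median log2 fold change was -0.31. With library totals alone 8 rose and 17 fell, and with quantile normalization 12 rose and 17 fell. Leaving out 1 library gave 1 to 9 higher and 16 to 30 lower, the 9 without AEL replicate 1 and the 1 without NC replicate 2 or 3. The 45 factors together took 1.18%, 1.05% and 1.56% of counts in AEL replicates 1, 2 and 3 and 0.528%, 0.58% and 0.469% in NC replicates 1, 2 and 3. The ribosomal proteins took 1.66%, 2.26% and 1.74% in AEL and 2.95%, 2.71% and 2.39% in NC. The summed CPM of the factors was thus 70.8%, 46.3% and 89.7% of that of the ribosomal proteins in AEL and 17.9%, 21.4% and 19.6% in NC. Near-identical transcripts of other genes were searched for the 45 factors only. How far such copies affect the counts of ribosomal protein genes was not checked, so these shares and this ratio are less certain. Levels in that list were uneven: Rpl5 was at 11.4 to 29.4 CPM over the libraries and Rplp0 at 1218 to 2282 CPM.

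**Figure D4:**
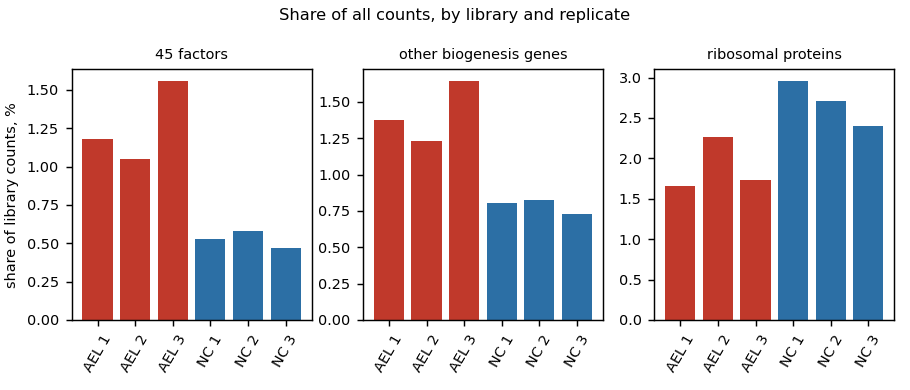
Share of all counts of a library (percent, bars from 0) taken by the 45 factors, by 128 other biogenesis genes and by 77 ribosomal proteins, in AEL (red) and NC (blue) replicates. The factors take 1.05% to 1.56% in AEL and 0.469% to 0.58% in NC, while the ribosomal proteins take less in each AEL library than in each NC library.

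**Figure D5:**
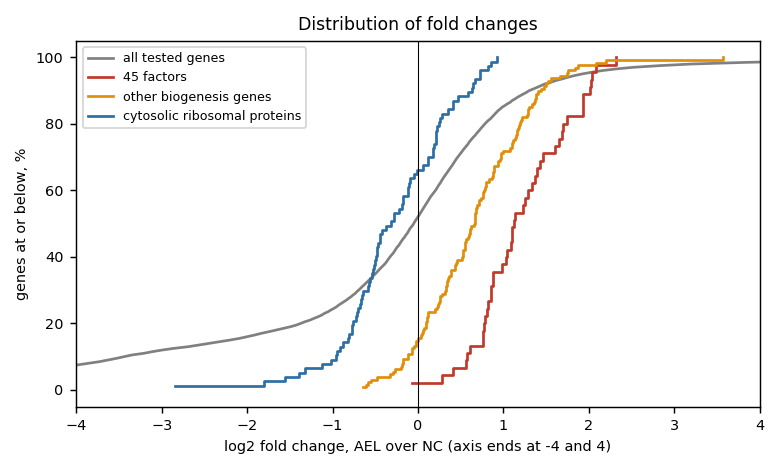
Percent of genes at or below each log2 fold change of AEL over NC, for all tested genes, the 45 factors, the other biogenesis genes and the ribosomal proteins; the axis ends at -4 and 4. The medians are -0.05, 1.13, 0.66 and -0.31.

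Markers of the cells in each library moved with the group, and their part in these results was not tested. The erythroid list (14 genes) summed to 5060.2 to 11505 CPM in AEL and 41010.4 to 53935 CPM in NC, with 11 genes lower and 0 higher. A stem and progenitor list went both ways: Gata2, Kit and Myb rose, Cd34, Flt3 and Spi1 fell, and the sum of 7 genes was 786 to 1211 CPM in AEL and 231 to 256 CPM in NC. Neutrophil genes (16) summed to 21.0 to 1326 CPM in AEL and 8622 to 10146 CPM in NC, with 14 lower, and macrophage genes (12) to 8.67 to 43.6 CPM and 3267 to 3853 CPM, with all 12 lower and Spic and Timd4 at 0 in every AEL library. B cell genes (11 tested) summed to 1.69 to 2.74 CPM in AEL and 231 to 278 CPM in NC, with 11 lower and Rag2 at 0 in AEL. T and NK cell genes (4 tested) summed to 0.225 to 0.823 CPM and 46.8 to 53.1 CPM, with 4 lower. AEL replicate 2, the lowest AEL library for most factors, had the highest neutrophil sum of the AEL libraries. Without it 43 of the 45 factors rose, with a median log2 fold change of 1.26.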

How the data were processed

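The authors deposited 1 table of raw read counts: it is called CPM, but holds whole numbers with unequal column sums. Per the submitters' processing notes, mm10 was the build and edgeR 3.32.1 a tool, without a stated role; aligner, counter and strand setting: not given in the sources used here. In the file, 100% of genes reach 1 CPM in 2 libraries or more. Columns were matched to samples by title.

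Groups were compared by the quasi-likelihood test of edgeR 4.0.16 under R 4.3.3, with TMM scaling and no covariate, on genes that reach 1 CPM in 3 libraries, with Benjamini-Hochberg adjustment over all 12427 genes at 0.05. SE is the absolute log2 fold change over the square root of F. limma 3.58.1, DESeq2 1.42.0 (26 adjusted p NA) and other scalings, filters, a replicate block and leave-one-out fits were alternatives. The pipeline was tested on simulated counts with the same scatter in both groups. It was therefore not tested at the unequal scatter of AEL and NC. At these depths 3 counts are 0.302 to 0.367 CPM, counting error only.

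The members and lists were chosen with earlier results of these data known. By plan, named genes were all 45 members and, per step, the other called gene with the largest rise and the largest fall. Further polymerase subunit and promoter factor genes, overlapping genes, markers, Trp53, Erg, Rpl5 and Rplp0 were named outside this rule. Gene locations and promoters are from RefSeq (GRCm38, which mm10 denotes). Nested snoRNA genes, exon overlaps and near-identical transcripts are from GENCODE M21. Exons of 13 members overlap another gene, 3 by 200 bases or more. For 10 members another gene has a transcript at least 95% identical over 200 bases, Npm1, Nop56 and Fbl among them, so their counts are less certain. For Tsr1, Noc2l and Imp4, also among the 10, that gene is the overlapping one already counted.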

Additional observations from a re-analysis of the deposited data

How the results depend on the processing

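Across 17 alternatives 36 of the 42 factors that rose kept their call in every fit that tested them. The other 6 (Gar1, Noc4l, Nip7, Mrto4, Npm1 and Ncl) lost it in 1 or more fits that left out an NC library; the cause was not tested. The replicate block ended the calls of Noc4l (adjusted p = 0.0655), Nip7 (0.0575), Mrto4 (0.079), Npm1 (0.0559) and Ncl (0.0541) in edgeR. No factor was called lower in any fit. With 1 library left out, 36 to 43 factors rose and 0 fell, the median log2 fold change ran from 1.01 to 1.26, 54 to 87 of the 128 other biogenesis genes rose and 2 to 5 fell, the 5 without AEL replicate 2, and 15.4% to 27.2% of all genes rose (1915 genes without NC replicate 1 and 1972 without NC replicate 2, against 2965). With the replicate block 37 factors rose and their median was 1.11. Same-numbered libraries did not pair: the correlations of their deviations were 0.06, -0.03 and -0.06, and only replicate 1 of AEL correlated best with its own number. Ubtf changed sign with library totals alone (0.12), under quantile normalization (0.054) and without AEL replicate 1 (0.022), none of them called; leaving out 1 library gave -0.080 to 0.022. Scaling moved the median of all genes from -0.05 to 0.14 (totals only) and 0.11 (quantile normalization), and higher genes from 45.2% to 55.2% and 55.5% of those called; the factors' median stood 1.18, 1.18 and 1.05 above the median of all genes. Without chromosomes 3, 9, 14, 19 and Y 36 of the 39 factors left rose. No factor was near the depth limit.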
